A study of Mus musculus with 3 samples.

Results

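The 30 genes described here encode enzymes of cholesterol and fatty acid synthesis and the proteins that regulate them. They were chosen by gene symbol, and all 30 were found once each among the 22976 genes of the counts table. Messenger RNA was sequenced from NSC-34, a mouse hybrid line of neuroblastoma and motor neuron-enriched embryonic spinal cord cells. The comparison was between 1 library of wild-type cells without treatment, called the control, and 2 libraries of cells that had become resistant to PR20 spontaneously, clone 1 and clone 2. Their labelled treatment is 3 weeks of PR20 at 10 µM. PR20 is a proline-arginine repeat peptide, one of the dipeptide repeats made from the expanded C9ORF72 repeat of amyotrophic lateral sclerosis. All cells were grown on gelatin in high-glucose medium with fetal bovine serum, and serum carries cholesterol and fatty acids.

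Cholesterol is built from acetyl-CoA through mevalonate, isoprenoids, squalene and lanosterol, and fatty acids are built from acetyl-CoA through malonyl-CoA. The SREBP transcription factors drive both sets of enzyme genes. SCAP carries the SREBP precursors from the endoplasmic reticulum to the Golgi when sterols are low, and the INSIG proteins hold them back when sterols are high. SREBP-2, encoded by Srebf2, is best known for the cholesterol enzymes, and SREBP-1c, encoded by Srebf1, for the fatty acid enzymes.

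Each library held between 11307034 and 11700755 gene counts. Levels are TMM-scaled CPM (each count divided by the scaled library total and put on a common scale), given as mean ± SD (n = 2) for the clones and as a single value for the control, which has no replicate. Changes are log2 fold changes of the clones over the control, called log2 changes, ± their standard error (SE). A gene was called where edgeR's quasi-likelihood test gave a Benjamini-Hochberg adjusted p under 0.05 over 13705 tested genes. No label states separate cultures for the clones, so a p-value here may reflect no more than technical spread between the libraries. The labelled motor neuron properties were only partly seen in marker genes. Of 9 motor neuron genes, Slc5a7 was not listed, Chat had 7 reads in the control and 0 in both clones, and the 8 listed genes summed to 1210 CPM in the control and to 963 and 924 CPM in the clones. Of the 5 tested, 4 were called lower and 0 higher. The neurofilament gene Nefh went from 323 CPM in the control to 17.2 and 18.4 CPM in the clones, the acetylcholine transporter gene Slc18a3 from 113 reads to 3 and 1, and Isl1 and Isl2 had log2 changes of -1.74 and -1.15. Prph, at 864, 940 and 900 CPM in the control, clone 1 and clone 2, was not called.

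Both SREBP genes and 4 of 6 fatty acid genes (Fasn, Acaca, Scd1 and Scd2) were higher in the resistant clones, while 11 of the 18 genes of the mevalonate and sterol steps did not pass the test. Of the 30 genes, 12 were called higher and 5 lower. DESeq2 called 8 higher and 0 lower, and without the filter on low counts edgeR called 0 in either direction, with 11 higher and 3 lower at an unadjusted p under 0.05. Over all tested genes 24.3% were called higher, 25.8% lower and 50.1% in either direction, so the 17 calls among the 30 (56.7%) are near the background. The median log2 change of the 30 genes was 0.14, beside 0.002 over all tested genes. At a fold of at least 1.5, 4 of the 30 were called higher (Srebf1, Fasn, Acaca and Scd1) and 0 lower, beside 7.82% and 14.5% of all tested genes.

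By role, 4 of 6 regulators and 4 of 6 fatty acid genes were called higher, beside 24.3% of all tested genes. The role groups hold between 6 and 11 genes, and differences between them were not tested. Of the 11 genes of the steps from squalene to cholesterol 4 were called higher, and of the 7 genes of the mevalonate steps 0 were called higher by edgeR or DESeq2. At an unadjusted p under 0.05, edgeR placed 1 mevalonate gene higher and DESeq2 placed 0. The authors' deposited table, made with DESeq2 on the same 3 libraries, lists 8 of the 30 with an adjusted p under 0.05, beside 19.8% of the 13906 genes that have an adjusted p there. That share covers both directions, with 1392 of the 13906 genes higher and 1359 lower. All 8 are higher in the clones in that table, and edgeR called each of them higher too: Srebf1, Srebf2, Insig1, Stard4, Fasn, Scd1, Scd2 and Acaca.

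**Figure D1:**
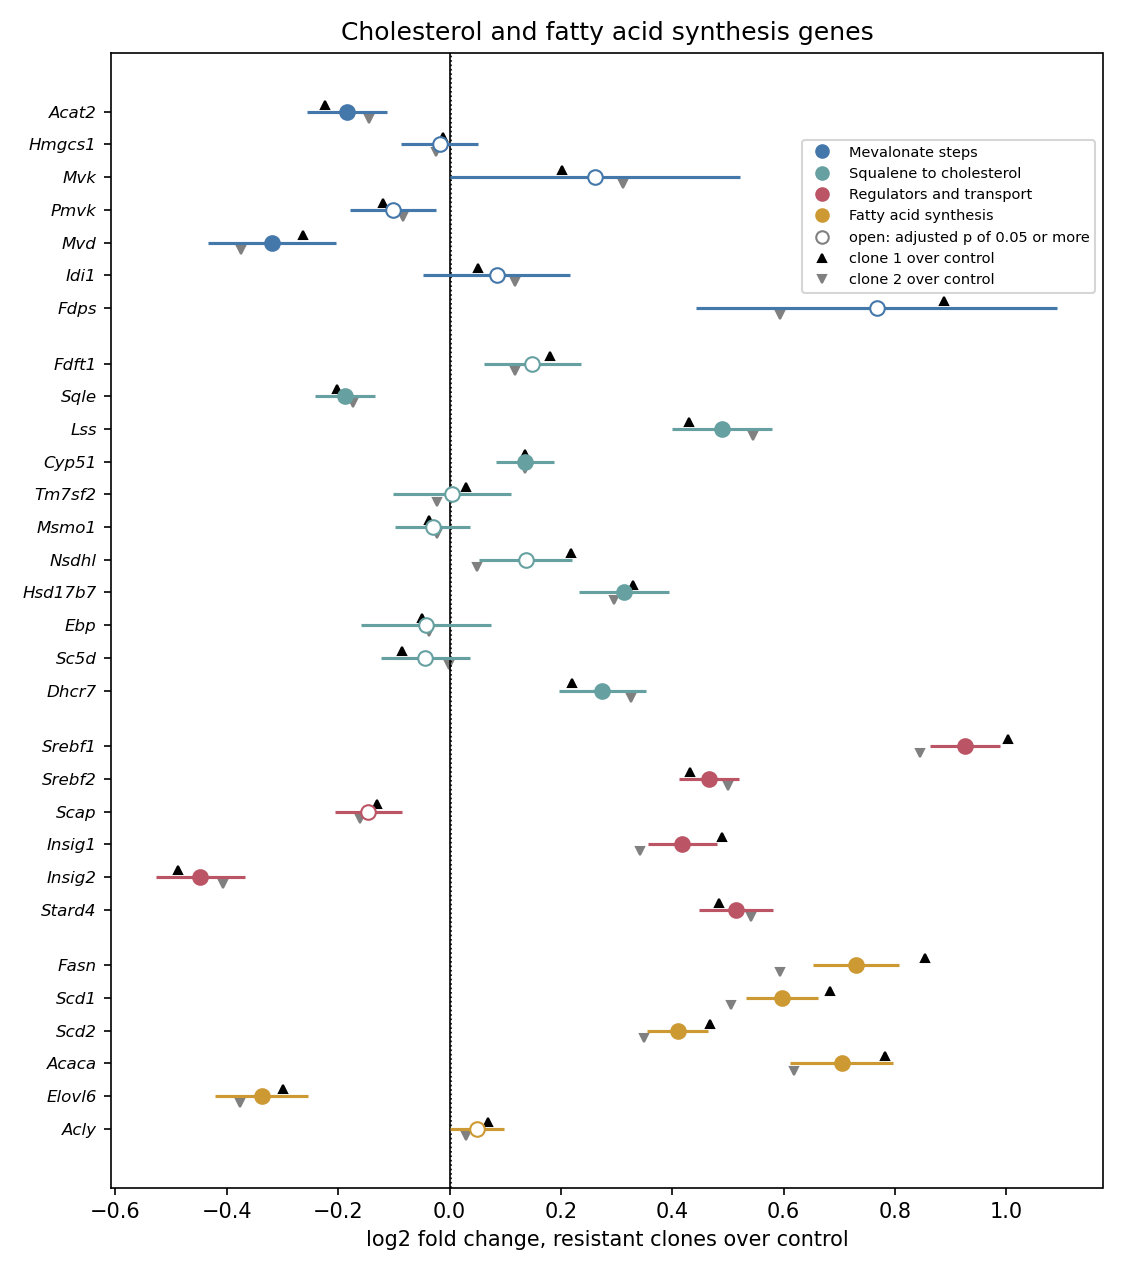
The log2 change of the clones over the control is plotted for each of the 30 genes by role. Bars are the standard error of the edgeR fit, filled circles mark an adjusted p under 0.05, triangles show each clone alone and the dotted line is the median of all tested genes. Among called genes Srebf1 (0.93), Fasn (0.73) and Acaca (0.70) lie farthest to the right and Insig2 (-0.45) farthest to the left.

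The regulators held the largest called change. Srebf1 (ENSMUSG00000020538.15; GRCm38 chromosome 11, 60199089 to 60222581, minus strand) stood at 317 CPM in the control, with a 95% counting interval of 307 to 327 CPM, at 635 CPM in clone 1 and at 569 CPM in clone 2. Both clones were far above the control, and clone 1 was the higher of the pair. The log2 change was 0.93 ± 0.06 (SE; edgeR adjusted p = 6.84e-09). Srebf2 was at 277 CPM in the control and at 373 and 391 CPM in clones 1 and 2, a log2 change of 0.47 ± 0.05 (edgeR adjusted p = 3.07e-06). Here clone 2 was the higher of the pair. The counts do not tell the 1a and 1c transcripts of Srebf1 apart. Rai1, which overlaps Srebf1 on the opposite strand, also had more reads in the clones, with 1141 in the control, 1877 in clone 1 and 1960 in clone 2, and its part in the Srebf1 counts was not tested.

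The INSIG pair moved in opposite directions. Insig1, itself a target of the SREBPs, was at 250 CPM in the control, 351 CPM in clone 1 and 316 CPM in clone 2, and rose by a log2 change of 0.42 ± 0.06 (SE; edgeR adjusted p = 3.92e-05). Insig2, whose protein also retains SCAP, was at 67.0 CPM in the control, 47.7 CPM in clone 1 and 50.5 CPM in clone 2. It fell, by a log2 change of -0.45 ± 0.08 (edgeR adjusted p = 0.000203). For each of these genes both clones lay on the same side of the single control value, as was so for 29 of the 30 genes. In DESeq2's test Insig2 had an adjusted p of 0.0578 and in the authors' deposited table one of 0.0596.

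Scap, the escort of the SREBP precursors, was at 139 CPM in the control and at 127 and 124 CPM in clones 1 and 2 (log2 change -0.15 ± 0.06, edgeR adjusted p = 0.0552). It did not pass the test, but did when only genes averaging 1 CPM or more were tested (adjusted p = 0.0302). Stard4, which encodes a carrier of cholesterol between membranes and is a known SREBP-2 target, was at 85.7 CPM in the control and at 120 and 125 CPM in the clones. It rose by a log2 change of 0.51 ± 0.07 (SE; edgeR adjusted p = 8.60e-06). Stard4 lies on chromosome 18, where the median log2 change of 339 tested genes was 0.41, and its change above that median was 0.10. Srebf2 lies on chromosome 15, where the median of 550 tested genes was -0.28, and its change above that median was 0.75. What part the chromosomes have in these changes was not tested.

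**Figure D2:**
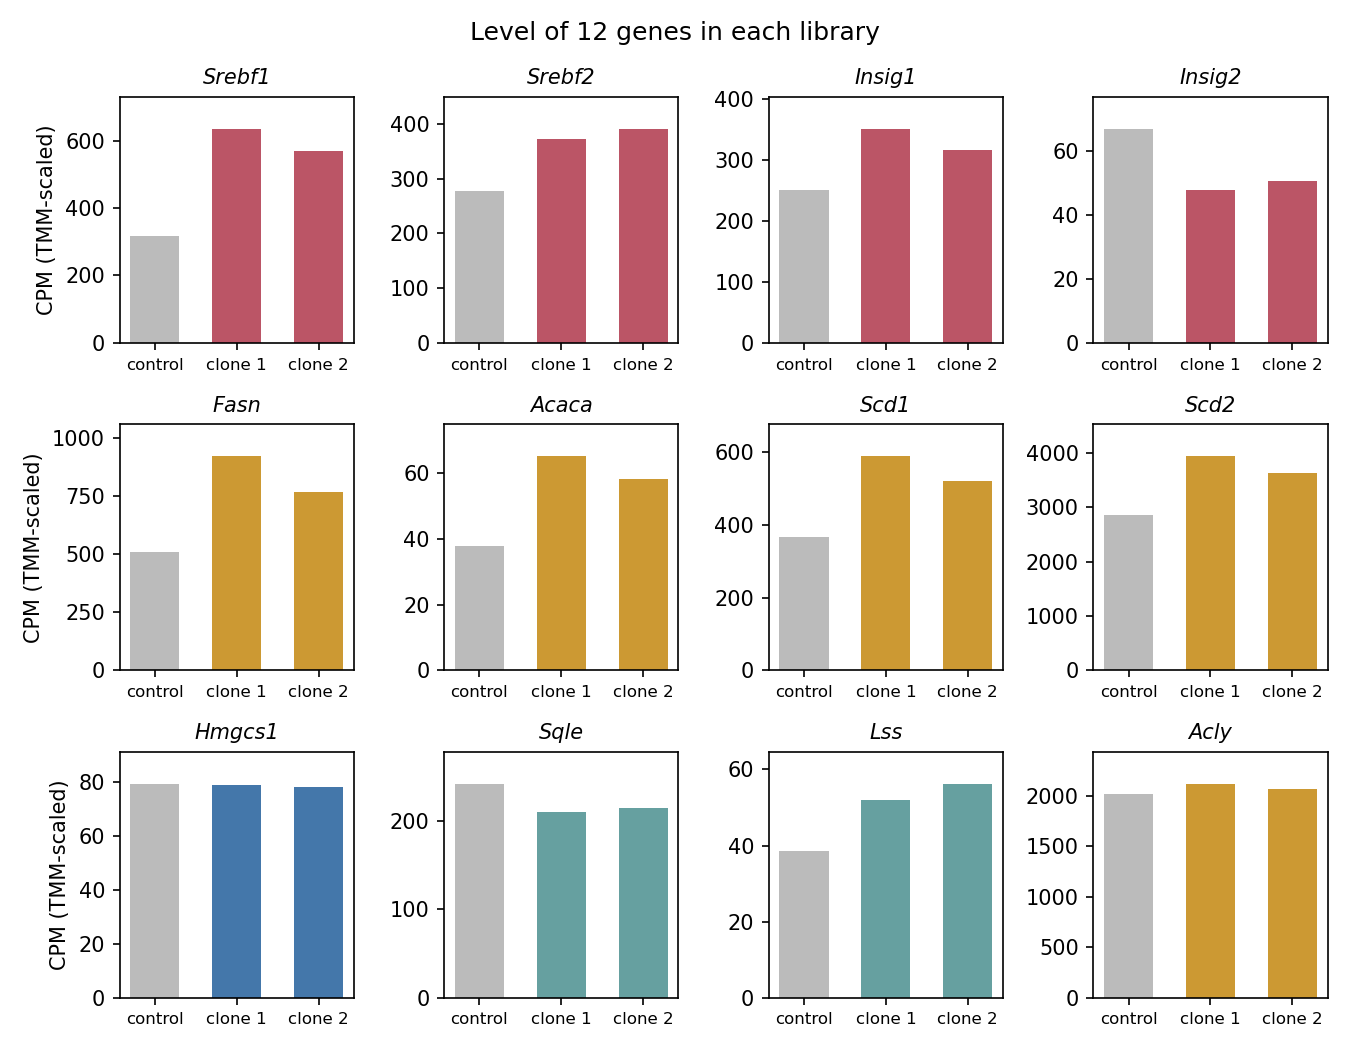
Bars show the TMM-scaled CPM of 12 of the 30 genes in the control (grey), clone 1 and clone 2, each panel with its own axis from 0 and with 1 library per bar. Srebf1, Fasn, Acaca, Scd1 and Scd2 are higher in both clones and highest in clone 1, Insig2 and Sqle are lower in both clones, and Hmgcs1 and Acly are nearly level.

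Genes of fatty acid synthesis rose in 4 of 6 cases and fell in 1. Fasn, which encodes fatty acid synthase, was at 510 CPM in the control, 923 CPM in clone 1 and 771 CPM in clone 2. Its log2 change was 0.73 ± 0.08 (SE; edgeR adjusted p = 1.09e-06). Acaca encodes acetyl-CoA carboxylase 1, which makes the malonyl-CoA that fatty acid synthase uses. It was at 37.8 CPM in the control and at 65.0 and 58.1 CPM in the clones, a log2 change of 0.70 ± 0.09 (edgeR adjusted p = 1.06e-05). Of the distinct 50-base stretches of annotated Acaca transcripts, 30.4% also occur in another gene, nearly all in the pseudogene Gm5182, which had 18, 26 and 25 reads in the control, clone 1 and clone 2.

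The stearoyl-CoA desaturases put a double bond into saturated fatty acids. Scd1 was at 366 CPM in the control, 588 CPM in clone 1 and 520 CPM in clone 2, a log2 change of 0.60 ± 0.06 (SE; edgeR adjusted p = 1.42e-06). Scd2, the form known for its expression in brain, was at 2853 CPM in the control, 3945 CPM in clone 1 and 3635 CPM in clone 2, a log2 change of 0.41 ± 0.06 (edgeR adjusted p = 1.37e-05). In both genes the clones were above the control and clone 1 was above clone 2. The 2 genes share few 50-base stretches with each other or with the other Scd genes, 4.56% of Scd1 and 3.97% of Scd2 in all. Per kilobase of messenger RNA, Scd2 was the most abundant of the 30 genes, at 523 CPM per kb in the control and 695 ± 40.1 CPM per kb in the clones, against 75.8 and 115 ± 9.99 CPM per kb for Scd1.

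The remaining fatty acid genes did not rise. Acly, the ATP citrate lyase gene, whose enzyme makes cytosolic acetyl-CoA from citrate, was at 2021 CPM in the control and at 2120 and 2062 CPM in the clones (log2 change 0.05 ± 0.05, edgeR adjusted p = 0.417). Elovl6, which encodes the elongase from palmitate to stearate, fell from 55.0 CPM to 44.7 and 42.3 CPM, a log2 change of -0.34 ± 0.08 (edgeR adjusted p = 0.00334). DESeq2 did not call Elovl6 (adjusted p = 0.231). The summed CPM of the 6 fatty acid genes was 5843 in the control, 7686 in clone 1 and 7089 in clone 2.

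Of the 7 genes of the mevalonate steps, from acetyl-CoA to farnesyl diphosphate, 2 were called lower, 0 higher and 5 did not pass. Hmgcs1, the cytosolic HMG-CoA synthase gene and a standard SREBP-2 target, was at 79.2 CPM in the control, 78.6 CPM in clone 1 and 77.9 CPM in clone 2 (log2 change -0.02 ± 0.07, edgeR adjusted p = 0.851). Mvd, the mevalonate diphosphate decarboxylase gene, fell from 28.5 CPM to 23.7 and 21.9 CPM, a log2 change of -0.32 ± 0.11 (edgeR adjusted p = 0.0294). Acat2, the cytosolic acetoacetyl-CoA thiolase gene, fell from 79.1 CPM to 67.8 and 71.6 CPM, a log2 change of -0.18 ± 0.07 (edgeR adjusted p = 0.0453). The fall of Acat2 missed the threshold with limma-voom (adjusted p = 0.0547), RLE size factors (0.0547) and the legacy quasi-likelihood fit (0.0539), and DESeq2 called neither Acat2 (0.489) nor Mvd (0.472).

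The mevalonate kinase gene Mvk, the phosphomevalonate kinase gene Pmvk and the isomerase gene Idi1 were not called, with log2 changes of 0.26 ± 0.26, -0.10 ± 0.08 and 0.08 ± 0.13. Fdps, the farnesyl diphosphate synthase gene, had 29 reads in the control, 51 in clone 1 and 41 in clone 2, too few for a close estimate (log2 change 0.77 ± 0.32, edgeR adjusted p = 0.0605). It was called when only genes averaging 1 CPM or more were tested (adjusted p = 0.0476), but not by DESeq2 (adjusted p = 0.558). Several of these genes share sequence with other genes, and reads that fit both may be missing from the counts. The share of distinct 50-base stretches found in another annotated gene was 39.1% for Acat2, mostly in its neighbour Acat3, 26.2% for Fdps and 25.3% for Idi1. For Fdps most of them lie in Gm43738, which overlaps it on the same strand. Acat3 itself had 0, 1 and 0 reads in the control, clone 1 and clone 2. Tcp1, which holds 290 of the 2586 Acat2 stretches, had 9280, 9689 and 9707 reads. Its part in the Acat2 counts was not tested. The summed level of the 7 mevalonate genes was 272 CPM in the control and 255 ± 2.29 CPM in the clones.

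From squalene to cholesterol, 4 of 11 genes rose, 1 fell and 6 did not pass. Lss, the lanosterol synthase gene, rose from 38.5 CPM in the control to 51.9 (clone 1) and 56.3 CPM (clone 2), a log2 change of 0.49 ± 0.09 (SE; edgeR adjusted p = 0.000279), and had the largest change of this group. Hsd17b7, a sterol ketoreductase gene, rose from 47.6 to 59.1 ± 1.01 CPM (log2 change 0.31 ± 0.08, edgeR adjusted p = 0.00419). Dhcr7, the gene of the 7-dehydrocholesterol reductase, rose from 58.1 to 70.3 ± 3.62 CPM (log2 change 0.27 ± 0.08, edgeR adjusted p = 0.00832). Dhcr7 lies on chromosome 7, where the median of 1069 tested genes was 0.26, and its change above that median was 0.01.

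Cyp51, the lanosterol demethylase gene, rose by a log2 change of 0.14 ± 0.05 (edgeR adjusted p = 0.0427), from 257 CPM to 282 CPM in each clone. Sqle, which encodes squalene epoxidase, an enzyme that limits the rate of the sterol branch, fell from 242 CPM to 210 and 214 CPM, a log2 change of -0.19 ± 0.05 (edgeR adjusted p = 0.00871). Sqle lies on chromosome 15, and relative to the median of that chromosome its log2 change was 0.09, the opposite direction. DESeq2 called none of these 5 genes, with Lss nearest to the threshold (adjusted p = 0.0676), and at an unadjusted p under 0.05 it placed 9 of the 30 genes higher and 1 lower. Fdft1, Tm7sf2, Msmo1, Nsdhl, Ebp and Sc5d did not pass in edgeR, with log2 changes between -0.04 and 0.15. The summed level of the 11 genes was 945 CPM in the control and 984 and 989 CPM in the clones.

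Levels of different genes were set side by side per kilobase of messenger RNA. On that scale Scd2 and Acly stood far above the rest in each library, and Acly was at 460 CPM per kb in the control and 476 ± 9.24 CPM per kb in the clones. Insig1 followed in the control, at 92.6 CPM per kb, then Sqle at 87.7, Scd1 at 75.8 and Srebf1 at 73.8 CPM per kb. In the clones Srebf1 came next after Acly, at 140 ± 10.8 CPM per kb, then Insig1 at 124 ± 8.98 and Scd1 at 115 ± 9.99 CPM per kb. The values of Insig1 and Scd1 overlapped between the clones, and the lower value of Srebf1 (132) was above the higher value of Insig1 (130.1). Fasn was at 50.8 and 84.2 ± 10.7 CPM per kb in the control and the clones, and Srebf2 at 54.5 and 75.3 ± 2.53 CPM per kb. The lowest levels in the control were those of Fdps (1.75), Mvk (2.61) and Acaca (3.97 CPM per kb). Of the 50-base stretches of Fdps and Acaca, 26.2% and 30.4% also occur in another gene. Reads that fit 2 genes may be missing from their counts, and what part this has in their rank was not tested.

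Promoters were compared because Srebf1, Fasn and Acaca rose while Insig2 and Elovl6 fell. RefSeq promoter windows on GRCm38.p6, from 250 bases before to 50 after an annotated start, were found for 24 of the 30 genes (32 windows). Windows were searched on both strands for the core of the sterol regulatory element (SRE), the SREBP binding sequence, written as TCACCCCAC or with 1 open base as TCACNCCAC, for the CCAAT box bound by NF-Y (CCAAT), for the E-box (CACGTG) and for the GC box bound by SP1 (GGGCGG). The open form includes the SRE core, and no other motif contains another. The SRE core was found in 3.12% of the 32 windows (1 window, that of Hmgcs1) and in 0.551% of all 32851 windows, and the open form in the same 3.12% and in 1.24%. The CCAAT box was in 65.6% of the 32 windows and 37.4% of all windows, the E-box in 18.8% and 7.15%, and the GC box in 75.0% and 35.7%. A match is a description of letters and not a measured binding site.

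For genes with several windows the one with most matches is shown, 5′ to 3′ on the strand of the gene, with motif matches in capitals. The Srebf1 window (chr11:60220578-60220877, minus strand) is 1 of 3, lies wholly inside the annotated gene and holds 3 GC boxes. A CCAAT box was found in a Srebf1 window that is not shown. The Fasn window (chr11:120824498-120824797, minus strand) holds 3 CCAAT boxes, of which 2 overlap. The Acaca window (chr11:84195188-84195487, plus strand) also lies inside its annotated gene and holds no match, as does that of Elovl6 (chr3:129532136-129532435, plus strand). The Insig2 window (chr1:121332540-121332839, minus strand) is 1 of 3 and holds 3 CCAAT boxes. A GC box was found in an Insig2 window that is not shown. The Hmgcs1 window (chr13:119690101-119690400, plus strand) was added after the matches were seen, as the 1 window with the SRE core. It also holds 4 CCAAT boxes and 3 GC boxes, and its gene was level between the control and the clones.
Srebf1: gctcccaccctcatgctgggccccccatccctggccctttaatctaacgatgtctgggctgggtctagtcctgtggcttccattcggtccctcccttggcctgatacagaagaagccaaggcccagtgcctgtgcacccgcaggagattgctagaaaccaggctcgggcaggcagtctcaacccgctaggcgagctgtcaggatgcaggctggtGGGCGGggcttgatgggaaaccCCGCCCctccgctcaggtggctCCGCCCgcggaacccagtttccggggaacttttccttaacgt
Fasn: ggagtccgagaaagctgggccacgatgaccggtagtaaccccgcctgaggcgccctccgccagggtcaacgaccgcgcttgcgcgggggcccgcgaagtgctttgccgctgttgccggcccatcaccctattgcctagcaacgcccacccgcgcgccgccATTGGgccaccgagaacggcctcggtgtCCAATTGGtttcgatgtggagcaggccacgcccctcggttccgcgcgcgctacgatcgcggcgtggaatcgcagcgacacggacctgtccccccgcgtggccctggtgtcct
Acaca: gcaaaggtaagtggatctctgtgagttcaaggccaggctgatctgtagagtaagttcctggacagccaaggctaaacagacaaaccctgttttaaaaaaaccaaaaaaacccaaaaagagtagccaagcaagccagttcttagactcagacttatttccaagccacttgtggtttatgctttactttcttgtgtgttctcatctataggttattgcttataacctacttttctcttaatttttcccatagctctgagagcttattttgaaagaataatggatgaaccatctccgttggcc
Insig2: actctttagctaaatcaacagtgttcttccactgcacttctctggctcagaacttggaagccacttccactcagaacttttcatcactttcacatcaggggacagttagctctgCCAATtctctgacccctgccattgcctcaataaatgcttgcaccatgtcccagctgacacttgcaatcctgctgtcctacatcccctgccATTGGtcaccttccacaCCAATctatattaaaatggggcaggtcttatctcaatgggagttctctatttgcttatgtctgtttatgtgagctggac
Elovl6: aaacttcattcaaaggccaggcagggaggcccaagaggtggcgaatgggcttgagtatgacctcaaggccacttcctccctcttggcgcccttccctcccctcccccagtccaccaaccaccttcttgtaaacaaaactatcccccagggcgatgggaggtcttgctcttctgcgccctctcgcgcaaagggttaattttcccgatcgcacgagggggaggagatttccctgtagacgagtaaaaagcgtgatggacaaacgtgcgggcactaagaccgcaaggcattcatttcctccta
Hmgcs1: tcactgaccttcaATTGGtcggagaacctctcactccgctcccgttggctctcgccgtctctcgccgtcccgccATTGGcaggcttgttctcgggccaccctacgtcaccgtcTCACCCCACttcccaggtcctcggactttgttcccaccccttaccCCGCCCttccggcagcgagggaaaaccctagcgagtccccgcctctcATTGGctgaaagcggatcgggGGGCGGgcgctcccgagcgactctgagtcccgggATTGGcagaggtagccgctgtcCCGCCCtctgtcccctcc

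Of the 9 genes that differed between the clones beyond counting error, 7 had risen in both. With 1 library each there is no test between them, and the ratio of clone 2 over clone 1 is given with its 95% interval for counting error only. The interval left out 1 for 9 of the 30 genes, 8 of them lower in clone 2 and 1 higher. Over 13660 tested genes with reads in a clone, 11.6% had such an interval, 5.52% lower and 6.03% higher in clone 2. The interval narrows with more reads, so a small difference can leave out 1 in a gene with many reads. Scd2 had 44291 reads in clone 1 and 40443 in clone 2, and Acly had 23798 and 22942. The shares were not matched for read number. The ratio was 0.835 for Fasn (interval 0.811 to 0.859), 0.884 for Scd1, 0.893 for Acaca, 0.896 for Srebf1, 0.902 for Insig1 and 0.922 for Scd2, so clone 1 was above clone 2 in each of these genes that rose in both. Acly (0.973, interval 0.955 to 0.991) and Nsdhl (0.889, interval 0.803 to 0.983), which were not called against the control, were also lower in clone 2. Nsdhl, a sterol dehydrogenase gene, was at 62.9 CPM in the control, 73.2 CPM in clone 1 and 65.1 CPM in clone 2. Srebf2 had a ratio of 1.05 (interval 1.00 to 1.09) and was the 1 gene above 1.

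**Figure D3:**
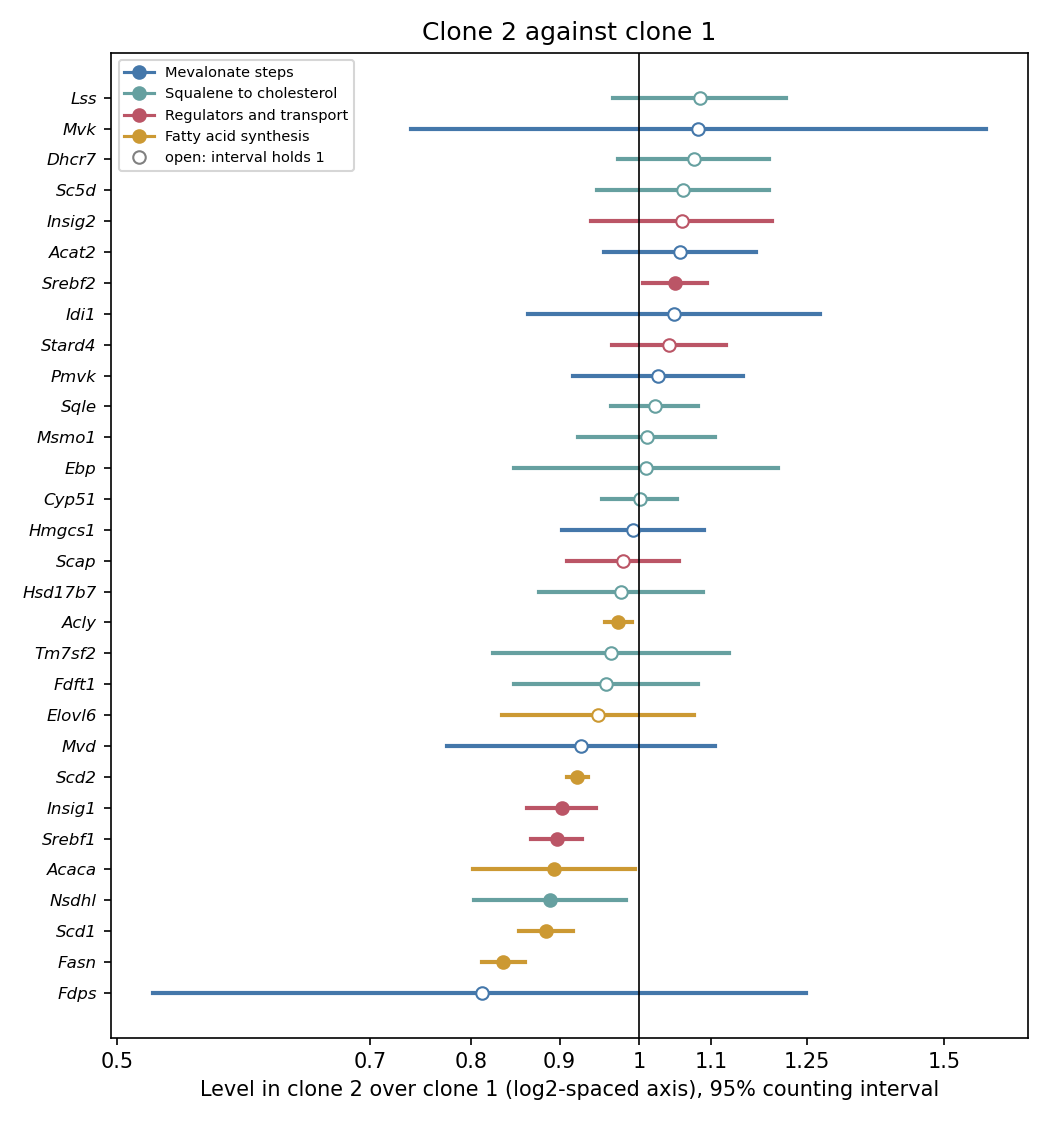
The level in clone 2 divided by that in clone 1 is plotted for the 30 genes in order of the ratio, with 95% counting intervals on a log2-spaced axis and filled circles where the interval leaves out 1. Among the filled circles Fasn (0.835) is lowest and Srebf2 (1.05) highest, and Fdps (0.811), with few reads, has a wide interval that holds 1.

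Other genes of sterol and fatty acid metabolism were read from the same fit for 7 lists of 118 genes, of which 110 were tested. Of these, 28 were called higher (25.5%) and 39 lower (35.5%), beside 24.3% and 25.8% of all tested genes. Nothing particular to a list is read from such counts. The list of acetyl-CoA and NADPH supply fell in 7 of 10 cases and rose in 0, against 3 lower and 0 higher by DESeq2, and at an unadjusted p under 0.05 edgeR placed 1 higher and DESeq2 placed 0. With only genes averaging 1 CPM or more tested, edgeR called 1 higher. The median log2 change of the list was -0.27. The list also holds genes that supply neither acetyl-CoA nor NADPH, among them Thrsp, which was called lower, and Mid1ip1 and Acacb, which were not called. The malic enzyme gene Me1 fell from 214 to 160 ± 3.63 CPM, the cytosolic isocitrate dehydrogenase gene Idh1 from 81.4 to 60.3 ± 1.70 CPM and the acetyl-CoA synthetase gene Acss2 from 38.5 to 26.7 ± 1.98 CPM (edgeR adjusted p of 1.49e-05, 0.000124 and 0.000562). Thrsp, which encodes the lipogenic protein Spot 14, fell from 22.1 to 8.72 ± 1.27 CPM, a log2 change of -1.34 ± 0.16 (edgeR adjusted p = 3.83e-06). Me1, Idh1 and Acss2, whose enzymes supply substrate or reducing power, and Thrsp were lower in both clones. In the same clones Fasn, Acaca and Scd1 were higher, and Acly was not called.

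Genes that process SREBPs or degrade sterol enzymes at the endoplasmic reticulum rose in 5 and fell in 7 of 14 cases. Mbtps2, which encodes the site-2 protease that releases active SREBP, fell from 85.8 to 54.4 ± 2.31 CPM (log2 change -0.66 ± 0.07, edgeR adjusted p = 2.22e-06). Mbtps2 lies on chromosome X, where the median of 425 tested genes was -0.22, and its log2 change relative to that median was -0.44. The ubiquitin ligase genes Rnf145 and March6 went opposite ways, Rnf145 from 114 to 182 ± 15.1 CPM and March6 from 374 to 277 ± 6.49 CPM, and both were called. March6 lies on chromosome 15, and its log2 change of -0.44 was -0.16 relative to the median of that chromosome. Of the steps of sterol synthesis outside the 30 genes, 3 were tested. Lbr, the lamin B receptor gene, whose protein also has the sterol reductase activity of the Tm7sf2 product, rose from 113 to 193 ± 12.3 CPM (log2 change 0.78 ± 0.07, edgeR adjusted p = 1.02e-07). Tm7sf2 itself was level, at 29.0 CPM in the control and 29.1 ± 0.760 CPM in the clones. The mitochondrial thiolase gene Acat1 rose from 122 to 152 ± 3.33 CPM.

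Elongation, desaturation and activation genes rose in 6 and fell in 8 of 21 tested cases. The acyl-CoA synthetase genes Acsl6 and Acsl4 fell from 54.5 to 5.64 ± 0.163 CPM and from 102 to 48.5 and 51.6 CPM, with log2 changes of -3.27 and -1.03. Acsl4 lies on chromosome X, and its log2 change was -0.82 relative to the median of that chromosome. The elongase gene Elovl4 fell from 59.5 to 34.2 ± 1.87 CPM, while the delta-6 desaturase gene Fads2 rose from 143 to 196 ± 2.22 CPM. The branch from isoprenoids to prenyl groups, dolichol and coenzyme Q rose in 3 and fell in 7 of 22 cases. Dhdds and Nus1, which encode both subunits of the enzyme that starts dolichol synthesis, fell from 127 to 80.5 ± 0.553 CPM and from 222 to 167 ± 1.51 CPM. The prenyltransferase subunit genes Pggt1b and Fnta went from 26.7 to 39.4 ± 5.63 CPM and from 110 to 88.5 ± 4.61 CPM, and both were called. Pggt1b lies on chromosome 18, and its log2 change of 0.56 was 0.15 above the median of that chromosome.

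Genes of sterol transport, efflux and oxysterols rose in 6 and fell in 6 of 21 tested cases, 28.6% each and near the share of all tested genes. Nr1h2, which encodes the sterol sensor LXR-beta, rose from 35.03 to 66.6 ± 0.116 CPM (log2 change 0.93 ± 0.08, edgeR adjusted p = 1.84e-07). Mylip, a ubiquitin ligase gene, rose from 5.49 to 19.0 ± 1.78 CPM (log2 change 1.79 ± 0.19, edgeR adjusted p = 1.01e-06). The lipoprotein receptor gene Scarb1 rose from 73.1 to 129 ± 12.3 CPM, and Gramd1b, which encodes a sterol transfer protein, fell from 74.0 to 43.5 ± 3.96 CPM. Fatty acid oxidation genes rose in 6 and fell in 3 of 19 tested cases, with a median log2 change of 0.02. Cpt1c, the brain form of carnitine palmitoyltransferase 1, rose from 51.4 to 96.8 ± 4.12 CPM, the carnitine carrier gene Slc25a20 fell from 49.0 to 27.3 ± 0.772 CPM, and Eci1 and Etfa rose with log2 changes of 0.43 and 0.28. Nr1h2, Cpt1c and Thrsp lie on chromosome 7, where the median log2 change was 0.26. Relative to that median their log2 changes of 0.93, 0.91 and -1.34 were 0.67, 0.65 and -1.60.

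**Figure D4:**
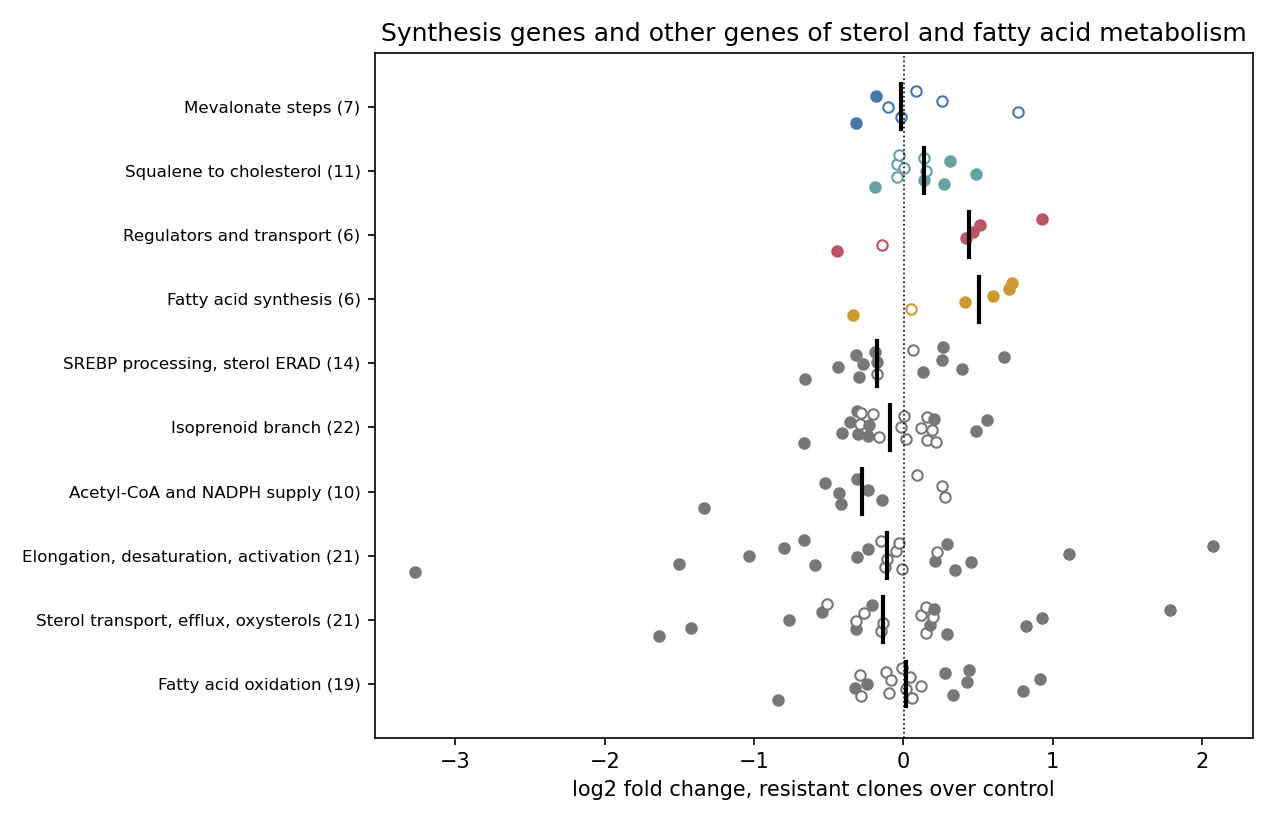
Each point is the log2 change of 1 tested gene, by role or list (the 3 other sterol steps are not drawn), with filled points for an edgeR adjusted p under 0.05, black bars for the list median and a dotted line for the median of all tested genes (0.002). The fatty acid synthesis genes have a median of 0.50. The list of acetyl-CoA and NADPH supply, which also holds Thrsp, Mid1ip1 and Acacb, has one of -0.27.

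Summed markers of glial cells were low and those of fibroblasts less so. The part of such cells in these results was not tested. The listed genes of oligodendrocytes and Schwann cells, which make much cholesterol, summed to 16.1 CPM in the control and to 9.44 and 9.62 CPM in the clones, with Mog and Mobp not listed and Mag and Sox10 at 0 in the control. Sox10 had 3 reads in clone 1 and 8 in clone 2. Of the 3 listed genes tested, 0 rose and 1 fell. Astrocyte genes summed to 17.5, 7.48 and 8.45 CPM and microglia genes to 1.66, 1.87 and 1.62 CPM in the control, clone 1 and clone 2. Fibroblast genes summed to 90.8 CPM in the control, 95.7 CPM in clone 1 and 123 CPM in clone 2. Of 7 tested, 2 were called higher and 1 lower.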

How the data were processed

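Messenger RNA libraries of NSC-34 cells were made with a stranded kit, per the labels' protocols. The deposited raw counts are whole reads per gene from STAR's gene counting, without normalization, per the file headers, and the authors' RPM columns scale them to each library's total and were not used. The authors' table of clones against control (absolute fold ratio, log2 fold change with its standard error, p-value and adjusted p-value) comes from DESeq2, per the file headers. These name STAR 2.5, Gencode M16 and GRCm38, and the submitters' processing notes name STAR 2.5.3. How strand was set in the counting is not given in the sources, and reads of overlapping genes may be mixed (among others Fdft1 with Ctsb, Cyp51 with Akap9, Srebf1 with Rai1, Lss with 4930483K19Rik).

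filterByExpr left 13705 of 22976 genes. The main test was edgeR 4.0.16's two-sided quasi-likelihood F test in R 4.3.3, with TMM factors and the legacy option off, at an adjusted p of 0.05. The SE was taken as the size of the log2 fold change over the square root of F. Only the clones inform the spread (1 residual degree of freedom), which edgeR moderates over all genes. Single-clone log2 ratios used a prior count of 1. Positions, messenger RNA lengths (principal transcript) and shared 50-base stretches came from Gencode M21 on GRCm38 and promoters from RefSeq on GRCm38.p6. Intervals are 95%, exact, and cover counting error only, as PCR copies of a molecule cannot be recognised.

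The 30 genes and the other lists were chosen with earlier results of these data known. Named with values in each library are called genes with a log2 fold change of at least 0.5 in size, regulators, and genes whose clone ratio interval left out 1. From each other list up to 4 genes with the lowest p are named, and promoters are shown for the 4 largest rises and 2 largest falls called, where the table held one. Values of other members were added to account for all 30. Paralogue proteins, also planned, are not shown. Some genes that the rule names are not reported here. Alternatives were DESeq2 1.42.0, RLE factors, legacy and robust fits, limma-voom (limma 3.58.1), a minimum mean of 1 CPM, no filter on low counts, each clone left out, and an SRE core with 1 open base. Centring on chromosome medians, and no filter with the legacy fit, were chosen after seeing the data.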

Additional observations from a re-analysis of the deposited data

How the results depend on the processing

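The control has no replicate, so the calls hold only if it varies like the clones. No paired analysis was possible because there is 1 control library and the labels give it no number that ties it to a clone.

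With DESeq2, 1402 genes were higher and 1369 lower. Among the 30 genes, 8 stayed higher and 0 lower. By role, DESeq2 called 0 mevalonate, 0 sterol, 0 regulator and 0 fatty acid genes lower and 0 sterol genes higher. In the other lists it called 10 higher and 13 lower. Without the low-count filter edgeR called 0 genes higher and 4 lower, 0 of the 30 and of each role in either direction, and 0 in the other lists in either direction. With no filter and the legacy fit it called 0 genes in either direction, again 0 of the 30, of each role and of the other lists. At an unadjusted p under 0.05 these fits placed 11 higher and 3 lower, and 12 higher and 4 lower, of the 30. The no-filter fits tested 22976 genes, and the cause of the loss was not tested.

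Mevalonate genes called lower numbered 1 with RLE factors, 1 with the legacy fit and 1 with limma-voom. With a mean CPM of at least 1, 1 mevalonate gene was higher (Fdps) and 2 regulators were lower (Insig2 and Scap). With RLE factors, a mean CPM of at least 1, the legacy fit, the robust fit and limma-voom, between 12 and 13 of the 30 were called higher and between 4 and 6 lower. Without clone 1 or clone 2, tested for no gene, the median log2 fold change of the 30 was 0.12 and 0.16. Relative to its chromosome's median, the log2 fold change of Sqle reversed to 0.092, and 12 of 12 higher and 4 of 5 lower calls kept their side.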
